A study of Mus musculus with 45 samples.

Results

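The 10 genes described here encode secreted and surface mediators that are known for restraining immune responses: Il10, Ebi3, Il12a, Tgfb1, Lrrc32, Fgl2, Areg, Entpd1, Nt5e and Adora2a. They were taken by name from the 23420 genes in the count table, but with earlier results of these data known. Shares of the 10 set beside shares of all genes are therefore not free of selection. All 10 were among the 14668 genes that passed the filter on low counts. The series profiled the RNA of sorted T cells in 9 groups of 5 libraries, from mice that carried B16, a transplanted mouse skin tumour. Regulatory T cells (Tregs) came from the tumour and from lymph nodes that do not drain it, each from 4 kinds of mouse or cell. WT Tregs came from wild-type mice, HetNrp1def Tregs were the neuropilin-1 deficient cells of heterozygous mice, and HetWT Tregs were the neuropilin-1 sufficient cells of heterozygous mice. The N Tregs carry a genotype label that reads like that of HetNrp1def, while the design text also names homozygous deficient mice, so they were kept as a group of their own from their titles. The ninth group was effector T cells from tumours of WT mice. Alleles, the driver of any recombinase and the ages of the mice are not given in the labels.

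Each Treg library was made from 5000 cells, sorted once (replicates 2, 3 and 4) or sorted again (replicates ds1 and ds2). Whether replicates stand for different animals is not stated, so the p-values reflect spread among these samples, and part of that spread may be technical. In each of the 4 heterozygous groups 2 libraries were so alike that their counts differed by hardly more than sampling noise, and they were counted as 1 sample, which left 41 samples: 18 of tumour Tregs, 18 of lymph node Tregs and 5 of effector T cells. Total counts ran from 2945638 to 35787148 with a median of 10248080, and the 9 ds2 libraries were the shallowest (2945638 to 5408375). Levels are counts-per-million values (CPM). The summed CPM of 5 Treg markers was 3547 to 9483 in tumour and 1853 to 4914 in lymph node Tregs. In effector T cells it was 108 to 278, so Tregs and effector T cells differed in this sum. Foxp3, 1 of the 5, was at 5.99 to 60 CPM in tumour Tregs and 0 to 68.8 in lymph node Tregs. In effector T cells Foxp3 was at 0 to 1.62 CPM, which overlaps the lymph node range. The median of Nrp1, the targeted gene, was 388 CPM in WT and 337 in HetWT lymph node Tregs against 187 in N and 151 in HetNrp1def, the order the labels give, with overlapping ranges. In tumour Tregs it was 131 CPM in WT, 147 in HetWT, 156 in N and 126 in HetNrp1def, also with overlapping ranges, and there it did not separate the genotypes. Counts over the whole gene cannot show a deletion of part of it, and no direction between genotypes was drawn from Nrp1. Because these are bulk samples, fewer cells of a type and less RNA per cell cannot be told apart.

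Tregs act on other cells through secreted cytokines and through enzymes and receptors on their surface. Interleukin-10 (Il10) dampens antigen-presenting cells and T cells. Ebi3 and Il12a encode the chains that pair as interleukin-35, and each chain also has other partners. Tgfb1 encodes transforming growth factor beta 1, which is made in a latent form that the surface protein GARP (Lrrc32) holds on the Treg. Fgl2 encodes a secreted fibrinogen-like protein that acts through Fc gamma receptors, and Areg encodes amphiregulin, a ligand of the epidermal growth factor receptor with a role in tissue repair. CD39 (Entpd1) splits extracellular ATP and ADP to AMP, CD73 (Nt5e) turns AMP into adenosine, and Adora2a encodes a receptor that senses adenosine.

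Fgl2, Areg and Entpd1 were all higher in tumour Tregs, and the bases upstream of their start sites are shown (RefSeq, GRCm38.p6, plus strand, 5′ to 3′). Ebi3 was also higher and had a promoter entry, but its bases are not shown. Promoter entries matched 7 of the 10 genes. Il10, Lrrc32 and Adora2a had no entry. Capitals mark matches, on either strand, to letters bound by NFAT (GGAAA), by factors of the cyclic AMP response (TGACGTCA) or by hypoxia-inducible factors (ACGTG or GCGTG).
Areg, chr5:91139349-91139598: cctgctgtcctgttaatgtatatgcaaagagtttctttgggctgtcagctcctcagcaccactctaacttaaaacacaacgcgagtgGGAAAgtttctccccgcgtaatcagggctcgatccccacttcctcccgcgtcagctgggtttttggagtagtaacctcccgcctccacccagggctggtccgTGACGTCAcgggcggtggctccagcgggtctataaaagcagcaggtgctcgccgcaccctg
Fgl2, chr5:21372423-21372641: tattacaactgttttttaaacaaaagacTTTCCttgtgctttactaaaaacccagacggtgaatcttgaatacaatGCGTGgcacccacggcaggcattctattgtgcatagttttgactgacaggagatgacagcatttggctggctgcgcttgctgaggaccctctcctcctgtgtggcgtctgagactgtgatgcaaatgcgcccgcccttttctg
Entpd1, first start site, chr19:40612116-40612365: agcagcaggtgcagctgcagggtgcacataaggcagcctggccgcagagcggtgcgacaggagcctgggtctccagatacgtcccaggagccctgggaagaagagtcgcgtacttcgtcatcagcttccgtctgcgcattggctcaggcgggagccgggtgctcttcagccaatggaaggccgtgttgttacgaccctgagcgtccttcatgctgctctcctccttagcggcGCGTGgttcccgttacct
Entpd1, second start site, chr19:40659520-40659769: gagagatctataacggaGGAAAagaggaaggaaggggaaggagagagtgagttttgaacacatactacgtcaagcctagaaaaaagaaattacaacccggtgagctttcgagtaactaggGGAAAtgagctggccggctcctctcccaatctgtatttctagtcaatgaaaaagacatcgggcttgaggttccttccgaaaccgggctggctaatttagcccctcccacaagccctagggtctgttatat
The Areg window held the full cyclic AMP response motif 61 bases before the start, at offset -61 from the base that follows the window, a motif present in 1.55% of 32851 windows of 250 bases. The Fgl2 window, 219 bases long because it stops before the GENCODE gene start, held an NFAT match at -191 and a hypoxia match at -143 from that start. The first Entpd1 window held a hypoxia match at -18, and the second held NFAT matches at -233 and -130. These 2 motifs are short and common, at 55.6% and 38.6% of windows. Hypoxia letters also matched in windows of genes that were not called higher in the tumour: Tgfb1 (-118), Nt5e (-138) and Il12a (-216). The Nt5e window and this Il12a window lie inside the GENCODE gene spans, before RefSeq start sites further in. The Ebi3 window held an NFAT match (-15) and no hypoxia match. None of the windows of the 7 matched genes held the AP-1 motif TGANTCA (6.75% of windows) or the forkhead motif GTAAACA (3.17%). A match describes letters and does not show that a factor was bound.

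Tumour Tregs were compared with lymph node Tregs as the mean of the 4 genotypes. Of the 10 genes, 5 rose in the tumour (Il10, Fgl2, Entpd1, Areg and Ebi3), 2 fell (Nt5e and Il12a), and 3 did not pass the test (Adora2a, Tgfb1 and Lrrc32). Il12a appears to have passed the filter on low counts through lymph node samples alone, so its fall is partly set by that filter. Over all genes tested, 11.2% were called in this comparison, 5.84% higher and 5.37% lower. The median log2 fold change was 1.28 over the 10 genes and -0.08 over all genes tested.

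**Figure D1:**
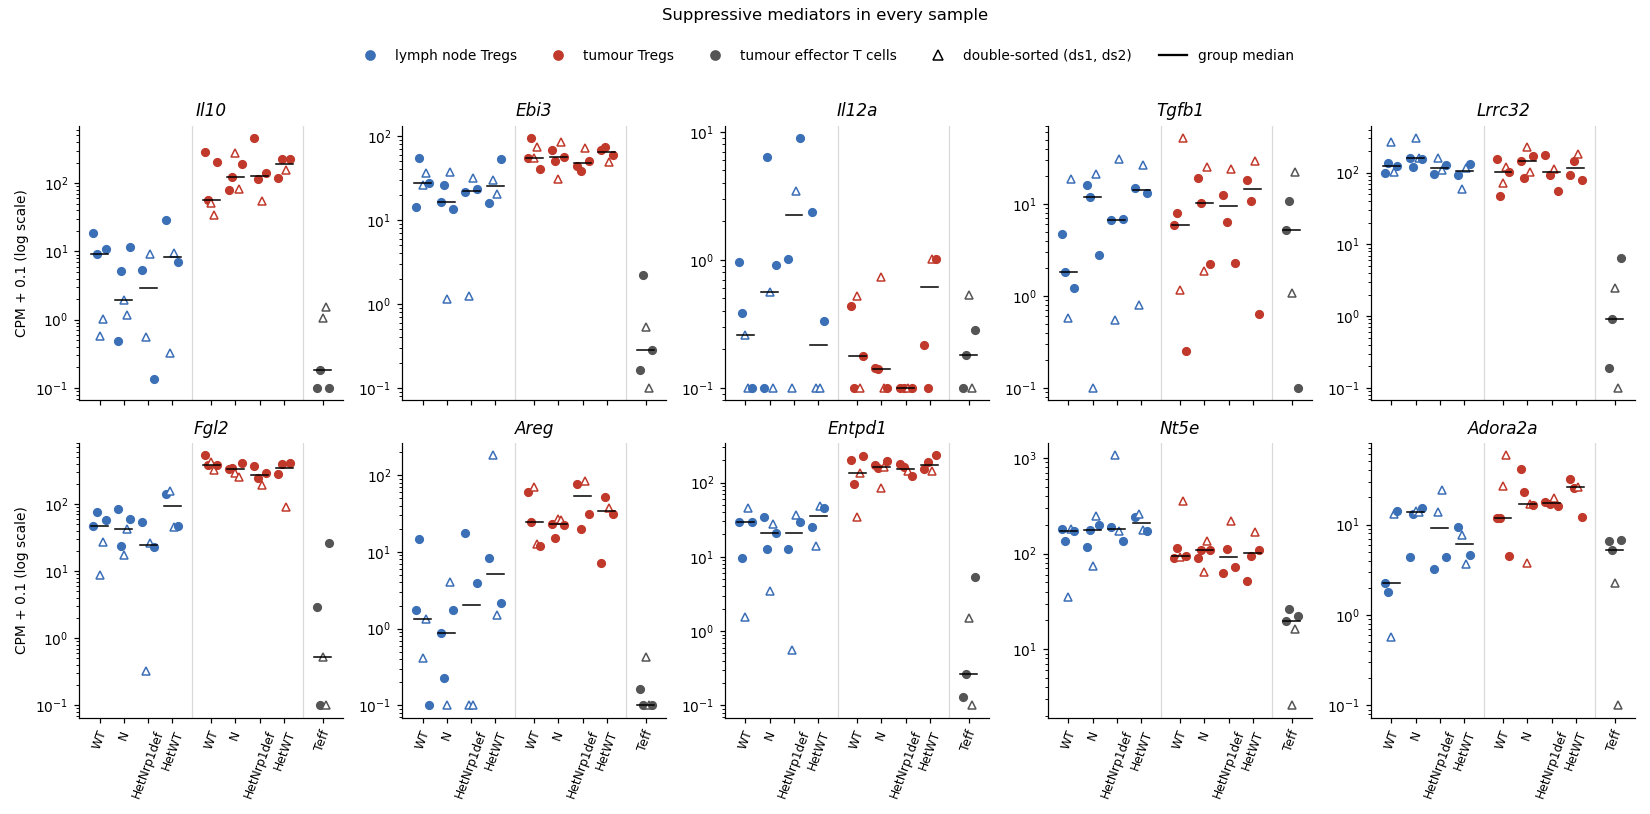
Expression of each gene in every sample, as CPM + 0.1 on a log scale, by genotype for lymph node Tregs (blue) and tumour Tregs (red) and for tumour effector T cells (grey, Teff). Triangles are double-sorted samples and bars are group medians. For Il10 the lowest tumour sample (33.9 CPM) lies above the highest lymph node sample (28.4 CPM), while the ranges of Lrrc32 and Tgfb1 overlap between the tissues. The share of all genes without overlap was not counted.

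Il10 differed most between the tissues. It lies on chromosome 1 (131019845 to 131024974, mm10). In tumour Tregs, in the order of replicates 2, 3, ds1, ds2 and 4, Il10 was at 287, 56.3, 50.7, 33.9 and 203 CPM in WT and at 78.9, 121, 279, 81 and 189 CPM in N. In replicates 2, 3, ds2 and 4 it was at 457, 113, 54.8 and 140.3 CPM in HetNrp1def tumour Tregs and at 120.1, 227, 153 and 222 CPM in HetWT tumour Tregs. All 18 tumour samples lay above every lymph node sample. The share of all genes tested that separate the tissues in this way was not counted, here or for the genes below. Within WT, N and HetNrp1def tumour Tregs the highest sample was several-fold above the lowest, and HetWT varied less. In lymph node Tregs Il10 was at 18.7, 9.17, 0.475, 0.926 and 10.8 CPM in WT and at 0.388, 5.01, 1.86, 1.08 and 11.6 CPM in N. In replicates 2, ds1, ds2 and 4 it was at 5.2, 0.451, 8.97 and 0.0364 CPM in HetNrp1def and at 28.4, 0.23, 9.4 and 6.84 CPM in HetWT. Lymph node levels were therefore low in every genotype, with single samples from under 1 CPM to 28.4 CPM. The mean was 159 ± 108 CPM in the tumour and 6.64 ± 7.56 in the lymph node (SD, n = 18 each), a log2 fold change of 4.72 ± 0.63 (SE, adjusted p = 7.8e-07). It stayed called in the single-sorted samples alone (4.58, adjusted p = 1.7e-04), in the double-sorted samples alone (5.21, adjusted p = 0.00533) and without any 1 of the 36 Treg samples (4.49 to 4.98).

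Ebi3 (chromosome 17, 55952640 to 55957022), the chain shared by interleukin-35 and interleukin-27, rose less. Its level was 54.1, 94.4, 54.8, 74 and 40.4 CPM in WT and 67.5, 49.9, 30.8, 84.5 and 56.8 CPM in N tumour Tregs, against 14.3, 55.2, 25.8, 35.8 and 27.5 CPM in WT and 16.4, 25.7, 1.05, 37 and 13.3 CPM in N lymph node Tregs. In the heterozygous groups it was 43.8, 38.7, 71.5 and 50.7 CPM in HetNrp1def and 68.1, 74.4, 48.6 and 59.1 CPM in HetWT tumour Tregs, against 21.4, 1.13, 31.3 and 23.2 CPM and 15.9, 30.2, 20.4 and 52.9 CPM in the lymph node. Tumour samples were mostly higher, but only 9 of 18 lay above every lymph node sample, and the 2 lowest lymph node values were both in ds1 samples. The mean was 59 ± 16.7 CPM in the tumour and 24.9 ± 14.6 in the lymph node (SD, n = 18 each), and the log2 fold change was 1.28 ± 0.39 (adjusted p = 0.022). The call was lost without the ds2 samples (1.37, adjusted p = 0.105), in the double-sorted samples alone (1.42, adjusted p = 0.984) and in the authors' log2 values (0.07, adjusted p = 0.952). Exons of Ebi3 overlap an antisense gene, and the kit does not mark strand, so reads of the pair cannot be told apart.

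Il12a (chromosome 3, 68690644 to 68698547), the partner chain of Ebi3 in interleukin-35, was barely detected in any group. Tumour Tregs held 46 Il12a counts in all, with 9 of 18 samples at 0, and lymph node Tregs held 542, with 7 of 18 at 0. Of the lymph node counts 243 came from HetNrp1def replicate 4 (8.84 CPM), 146 from N replicate 3 (6.31 CPM) and 84 from HetWT replicate 2 (2.25 CPM). So 3 samples held most of the reads, and the lymph node median was 0.261 CPM against 0.0207 in the tumour. The highest tumour Treg sample held 0.919 CPM, so Il12a appears to have passed the filter on low counts through lymph node samples. Its test is not independent of that filter, and no conclusion is drawn from its fall. The ratio of summed counts, tumour to lymph node, was 0.0746 (95% interval 0.054 to 0.101, counting error only). The fitted log2 fold change was -3.27 ± 0.98 (adjusted p = 0.0203), and without HetWT lymph node replicate 2 it was -2.71 (adjusted p = 0.0535). With the newer quasi-likelihood method it was -3.95 and also missed the threshold (adjusted p = 0.0552). The HetNrp1def tumour group, with no Il12a count in 4 samples, enters that mean, and its part in it depends on the prior count.

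B cell markers moved with Il12a. The summed CPM of Ms4a1, Cd79a and Cd79b was 1.11 to 486 in lymph node Tregs, 0.635 to 39.6 in tumour Tregs and 0 to 36.7 in effector T cells, and 3 of 3 of these genes were lower in the tumour. Ms4a1 was at 0 in 12 of the 18 tumour samples. Over all 41 samples Ms4a1 (r = 0.51) and Cd79a (0.49) were among the genes most like Il12a. These correlations describe samples that share libraries and tissue, and the part of B cells in the Il12a result was not tested. The other chains that can pair with Ebi3 or Il12a were near absent as well: the mean of Il27 was 0.443 CPM in tumour and 0.0796 in lymph node Tregs, and that of Il12b was 0.0747 and 0.0895 CPM.

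**Figure D2:**
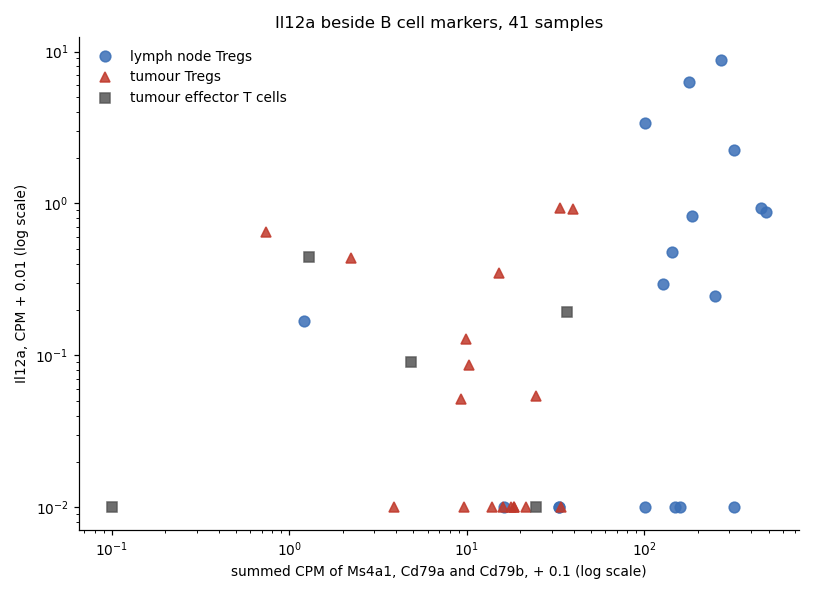
Il12a (CPM + 0.01, log scale) against the summed CPM of 3 B cell markers (+ 0.1, log scale) in 41 samples, by cell type and tissue. The lymph node samples with the most Il12a (2.25 to 8.84 CPM) are among those with B cell markers at about 100 CPM or more, but other lymph node samples in that range had no Il12a count.

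Lrrc32 (chromosome 7, 98489283 to 98502181) did not differ between the tissues beyond its spread. It was at 153, 48, 72.1, 119.6 and 101 CPM in WT and at 144, 83.9, 228, 103 and 170.2 CPM in N tumour Tregs, and at 99.3, 136, 264, 102 and 122 CPM in WT and at 158, 121, 304, 162 and 156 CPM in N lymph node Tregs. In the heterozygous groups it was at 175, 91.9, 111 and 55.6 CPM in HetNrp1def and at 91.6, 144, 185 and 79.3 CPM in HetWT tumour Tregs, and at 96.1, 159, 108 and 128 CPM and 94.2, 58.3, 118 and 134 CPM in the lymph node. No tumour sample lay above every lymph node sample, and every Treg sample held at least 48 CPM. The log2 fold change was -0.18 ± 0.29 (95% interval -0.78 to 0.41, adjusted p = 0.79). In the authors' log2 values, whose table gives every replicate number the same mean for each gene, it was -1.23 and was called (adjusted p = 0.00496).

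Tgfb1 (chromosome 7, 25687002 to 25705077), the cargo of GARP, followed the replicate label rather than the group. The 9 ds2 samples held 18.5 to 51.9 CPM, and ds2 was the highest sample in 9 of 9 groups, effector T cells included. The 7 ds1 samples held 0 to 1.75 CPM. Replicate number held 72.1% of the variance of Tgfb1 over 41 samples and group held 7.86%, whereas for the other 9 genes replicate number held 1.27% (Lrrc32) to 13.5% (Entpd1). In WT tumour Tregs, for example, replicates 2, 3, ds1, ds2 and 4 were at 5.83, 7.79, 1.07, 51.9 and 0.153 CPM, and in effector T cells at 5.07, 10.6, 0.971, 22 and 0 CPM. The groups overlapped throughout, with 1 of 18 tumour samples above every lymph node sample. The log2 fold change between tumour and lymph node was 0.40 ± 0.67 (95% interval -0.95 to 1.76, adjusted p = 0.798), and it was -0.06 without WT tumour replicate ds2 and -0.04 with the replicate number as a block. The cause of the pattern was not tested. The ds2 libraries were also the shallowest.

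**Figure D3:**
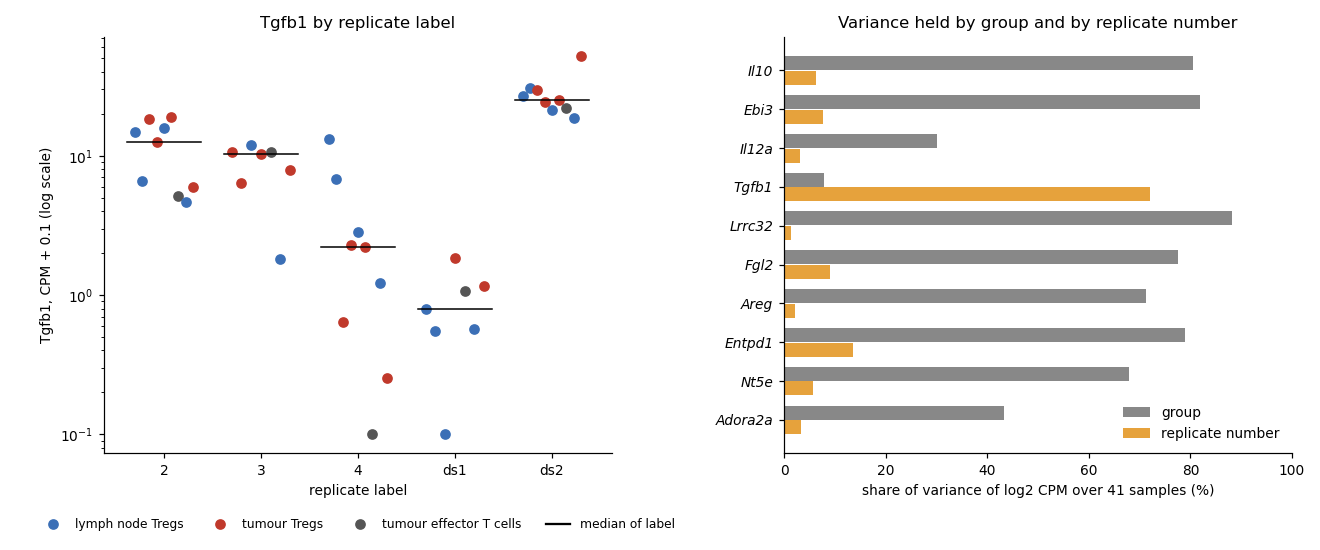
Left, Tgfb1 (CPM + 0.1, log scale) in 41 samples by replicate label, with the median of each label. Right, the percent of variance of log2 CPM held by group and by replicate number for each gene. All ds2 samples lie at 18.5 CPM or above and all ds1 samples at 1.75 CPM or below, and for Tgfb1 alone the bar of replicate number (72.1%) is longer than that of group (7.86%).

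Fgl2 had the highest level among the 10 genes in tumour Tregs by CPM, and per length it came after Il10 (median 89.4 against 99.8 CPM per kilobase). It lies on chromosome 5 (21372642 to 21378374), within the span of Ccdc146 on the other strand but without shared exons. Tumour Tregs held 529.9, 384, 417, 322 and 377 CPM in WT, 329, 348, 292, 252 and 405 in N, 373, 245, 192 and 292 in HetNrp1def and 282, 397, 91.9 and 408 in HetWT. Lymph node Tregs held 47.4, 75.5, 8.71, 27.2 and 57.6 CPM in WT, 83.7, 23.7, 17.3, 42.5 and 60.3 in N, 53.5, 0.225, 26.2 and 23.1 in HetNrp1def and 139, 157, 46 and 47.4 in HetWT. Of the tumour samples 17 of 18 lay above every lymph node sample, and the exception was HetWT replicate ds2 at 91.9 CPM. The mean was 329.9 ± 98.7 CPM against 52 ± 41.3 (SD, n = 18 each), and the log2 fold change was 2.77 ± 0.49 (adjusted p = 1.4e-04). In the double-sorted samples alone it was 2.80 (adjusted p = 0.0506), and in the authors' log2 values 1.30 (adjusted p = 0.108).

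Areg (chromosome 5, 91139599 to 91148432) also rose in tumour Tregs, with 1 lymph node sample standing apart. Tumour Tregs held 60.3, 24.5, 69.3, 12.5 and 11.7 CPM in WT, 23.2, 15.1, 26.7, 26.2 and 22.5 in N, 76.6, 19.9, 84.6 and 31.4 in HetNrp1def and 7.06, 51.3, 36.9 and 30.6 in HetWT. Lymph node Tregs held 1.63, 14.7, 0.317, 1.23 and 0 CPM in WT, 0.776, 0.13, 0, 3.95 and 1.63 in N, 17.6, 0, 0 and 3.85 in HetNrp1def and 8.19, 180.1, 1.4 and 2.06 in HetWT. The HetWT lymph node replicate ds1, at 180.1 CPM, exceeded every tumour sample, while the other 17 lymph node samples reached at most 17.6 CPM. The median was 26.4 CPM in the tumour and 1.52 in the lymph node, and the log2 fold change was 2.54 ± 0.65 (adjusted p = 0.00619). Without that sample it was 3.45 (adjusted p = 2.3e-04). In the HetWT comparison alone the sample turned the direction, from -0.60 with it to 3.03 without it. In the authors' log2 values the difference was 2.00 (adjusted p = 0.0694). That sample's summed markers of macrophages (14.5 CPM), dendritic cells (12 CPM) and B cells (32.7 CPM) lay within the range of the other lymph node samples. NK cell markers, which summed to as much as 834 CPM in lymph node Tregs (median 6.26), were not set beside single samples. The part of other cells in this value was not tested.

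Entpd1 rose nearly as far as Fgl2. It lies on chromosome 19 (40612366 to 40741602), and its span also holds processed pseudogenes without exon overlap. Tumour Tregs held 201, 94.6, 34.5, 135 and 228 CPM in WT, 174, 158, 85.1, 163 and 193 in N, 175, 162, 141 and 123 in HetNrp1def and 150.1, 190.2, 145 and 231 in HetWT. Lymph node Tregs held 28.9, 9.67, 1.43, 45.8 and 28.9 CPM in WT, 34.3, 12.6, 3.37, 27.6 and 21 in N, 12.5, 0.451, 36.2 and 29.6 in HetNrp1def and 25.3, 14, 48.6 and 45.9 in HetWT. Of the tumour samples 17 of 18 lay above every lymph node sample, the exception being WT replicate ds1 at 34.5 CPM. The mean was 155 ± 49.5 CPM against 23.7 ± 15.3 (SD, n = 18 each), a log2 fold change of 2.73 ± 0.43 (adjusted p = 7.2e-06). It was 2.47 in the double-sorted samples alone (adjusted p = 0.488) and 1.49 in the authors' log2 values (adjusted p = 0.0236).

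Nt5e (chromosome 9, 88327197 to 88372092), the enzyme after CD39 in the adenosine pathway, went the other way. Tumour Tregs held 90.1, 114, 92.9, 356 and 93.3 CPM in WT, 88.6, 109.8, 64.6, 135 and 109 in N, 61.7, 111, 221 and 72.1 in HetNrp1def and 51, 94.8, 167 and 108 in HetWT. Lymph node Tregs held 182, 136, 35.3, 179 and 172 CPM in WT, 117, 174, 73.7, 246 and 200.4 in N, 191, 1059, 171 and 134 in HetNrp1def and 243, 257, 178 and 170.2 in HetWT. The ranges overlapped, and the sample at 1059 CPM (HetNrp1def replicate ds1) was far above the rest. The median was 101 CPM in the tumour and 176 in the lymph node, and the log2 fold change was -0.84 ± 0.28 (adjusted p = 0.0395). This call was not stable: it was lost in 28 of the 36 fits that left out 1 Treg sample (adjusted p from 0.0109 to 0.23 over the 36). It held without HetNrp1def tumour ds2, N lymph node 2 or ds1, N tumour ds2 or 4, WT lymph node 3 or ds1, or WT tumour ds2. Without the sample at 1059 CPM the change was -0.51 (adjusted p = 0.23). It was -0.91 in the single-sorted samples alone (adjusted p = 4.0e-04), -0.32 in the double-sorted samples alone (adjusted p = 1) and -0.52 without the ds1 samples (adjusted p = 0.0684). With no filter on low counts it was -0.71 (adjusted p = 0.114). The same HetNrp1def sample had the lowest lymph node Fgl2 (0.225 CPM) and Entpd1 (0.451 CPM). Its dendritic cell markers summed to 153 CPM, the highest of the lymph node samples. Most of that sum was 1 marker, Siglech (149 CPM), so it does not describe dendritic cell markers in general. The part of other cells was not tested.

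Adora2a (chromosome 10, 75316877 to 75334784), the adenosine receptor, had higher values in the tumour but did not pass the test. Tumour Tregs held 3.65 to 58.1 CPM with a median of 17.4, and lymph node Tregs 0.475 to 24.2 CPM with a median of 8.51. Of the tumour samples 6 of 18 lay above every lymph node sample. The log2 fold change was 1.29 ± 0.48 (95% interval 0.32 to 2.26, adjusted p = 0.0718). It passed without HetNrp1def lymph node ds2 (1.54, adjusted p = 0.0418), N tumour ds1 (1.37, adjusted p = 0.0455) or WT lymph node 4 (1.47, adjusted p = 0.045), with DESeq2 (1.23, adjusted p = 0.0136), with the newer quasi-likelihood method (1.34, adjusted p = 0.00493), with the 45 libraries as deposited (1.34, adjusted p = 0.0238) and without the ds1 samples (1.36, adjusted p = 0.0374).

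Within single genotypes few differences between tumour and lymph node passed the test. Of 40 tests, 2 were called, both for Il10: in N (5.22 ± 1.21, adjusted p = 0.0208) and in HetNrp1def (5.71 ± 1.38, adjusted p = 0.0366). Over all genes tested, 0.873% were called in WT, 0.791% in N, 0.654% in HetNrp1def and 0.239% in HetWT. Il10 was 3.97 ± 1.14 in WT (adjusted p = 0.0898) and 3.99 ± 1.27 in HetWT (adjusted p = 0.262). The HetNrp1def call was lost without any 1 of its 8 samples (adjusted p from 0.0532 to 0.195). It was also lost without HetWT lymph node ds2 or 4 or any of the 4 HetWT tumour samples, which share the estimate of spread. The N call was lost without N lymph node 2, 3, ds1 or ds2. Fgl2 was 3.23 in WT, 2.84 in N, 3.41 in HetNrp1def and 1.60 in HetWT, and Entpd1 was 2.60, 2.96, 2.93 and 2.42 in the same order. Ebi3 was 1.63 in N, 1.40 in HetNrp1def, 1.07 in HetWT and 1.0 in WT. For these 4 genes the fitted change was above 0 in 4 of 4 genotypes. The same held for 2 genes that were not called. Adora2a was 1.84 in WT, 0.75 in N, 0.64 in HetNrp1def and 1.92 in HetWT, and Tgfb1 was 1.34, 0.17, 0.01 and 0.09. The share of all genes with such agreement was not counted. Areg was 3.30 in WT, 4.17 in N, 3.28 in HetNrp1def and -0.60 in HetWT. Nt5e was 0.08 in WT, -0.68 in N, -1.74 in HetNrp1def and -1.01 in HetWT. Il12a was -0.66 in WT, -3.42 in N and -0.42 in HetWT.

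**Figure D4:**
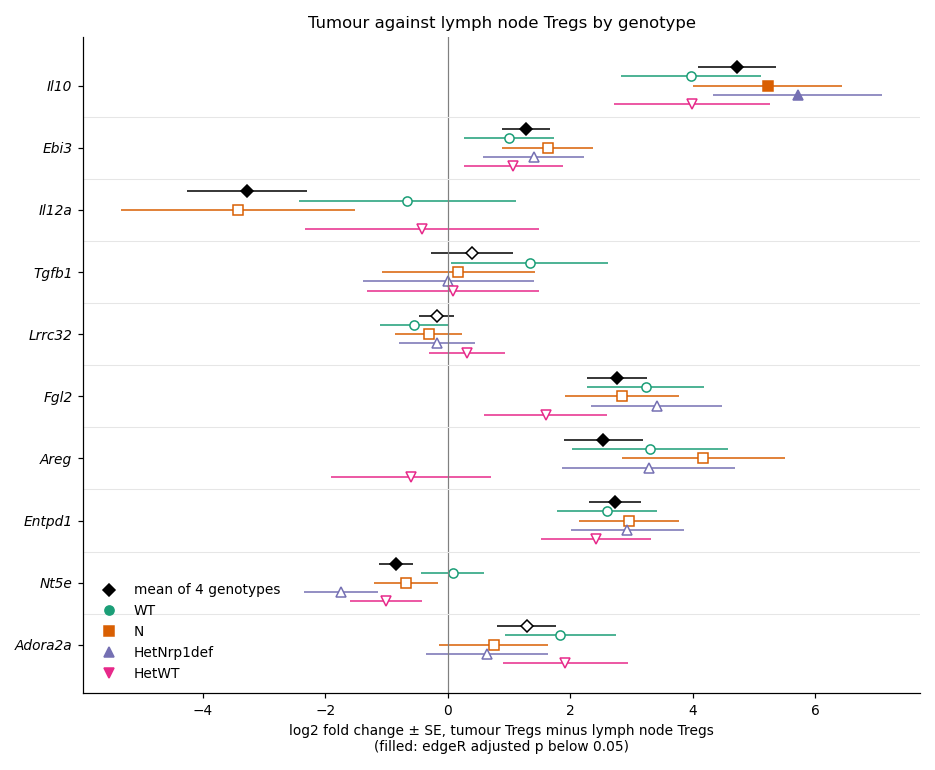
Log2 fold change ± SE of tumour over lymph node Tregs, for the mean of 4 genotypes and for each genotype. Filled symbols passed an adjusted p of 0.05. Il12a in HetNrp1def is not drawn because no tumour sample held a count. Il10, Fgl2, Entpd1, Ebi3, Adora2a and Tgfb1 lie above 0 in all 4 genotypes, Tgfb1 only just so in some. Il10 in N (5.22) and HetNrp1def (5.71) are the filled single-genotype symbols.

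Tumour Tregs were also compared with effector T cells of WT tumours. Of the 10 genes, 7 were higher in tumour Tregs (Il10, Ebi3, Lrrc32, Fgl2, Areg, Entpd1 and Nt5e), and Adora2a, Tgfb1 and Il12a did not pass the test. In this comparison 11.2% of all genes tested were called and 5.43% were higher, and the median log2 fold change was 5.81 over the 10 genes and -0.13 over all genes. For each of the 7, all 18 tumour samples lay above all 5 effector samples. The share of all genes tested that separate in this way was not counted. In effector T cells, replicates 2, 3, ds1, ds2 and 4 held 0, 0.0806, 0.971, 1.43 and 0 CPM of Il10, a total of 15 counts. Areg was at 0.0618, 0, 0.324, 0 and 0 CPM, a total of 5 counts. Ratios of summed counts, with 95% intervals for counting error only, were 744 (451 to 1330) for Il10, 434 (186 to 1336) for Areg and 120 (85.8 to 173) for Ebi3. The fitted log2 fold changes of genes this rare in effector T cells depend on the prior count: 8.69 ± 1.42 for Il10 (adjusted p = 2.5e-05), 8.62 ± 1.64 for Areg (adjusted p = 1.5e-04) and 6.64 ± 0.90 for Ebi3 (adjusted p = 1.7e-07). In the authors' log2 values Areg was 2.70 and was not called (adjusted p = 0.186).

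Lrrc32 was at 0.0927, 0.806, 2.37, 0 and 6.47 CPM in effector T cells and at 48 CPM or more in every Treg sample, a log2 fold change of 5.89 ± 0.66 for tumour Tregs (adjusted p = 1.6e-09). Entpd1 was at 0.0309, 0.161, 1.4, 0 and 5.19 CPM in effector T cells (6.79 ± 0.96, adjusted p = 5.5e-07), and Fgl2 was at 2.84, 0, 0.432, 0 and 26.4 CPM (5.74 ± 1.02, adjusted p = 1.3e-04). Effector replicate 4 was the highest of the 5 for all 3 of these genes. Without it the log2 fold changes were 7.33 for Lrrc32, 8.84 for Entpd1 and 8.32 for Fgl2. Nt5e was the called gene with the most RNA in effector T cells, at 19.8, 26.2, 2.48, 16.3 and 22 CPM, and its log2 fold change was 2.75 ± 0.51 (adjusted p = 7.3e-05).

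Adora2a was 2.33 ± 0.83 (adjusted p = 0.0587) and passed in 5 of 34 alternatives: without N tumour ds1 (adjusted p = 0.0437), without the ds1 samples (adjusted p = 0.0495), with the 45 libraries as deposited (adjusted p = 0.0396), with the newer quasi-likelihood method (adjusted p = 0.0133) and with DESeq2 (adjusted p = 7.1e-04). Tgfb1 was 0.72 ± 1.06 (adjusted p = 0.749) and Il12a -0.56 ± 0.63 (adjusted p = 0.661). The Il12a SE was derived from the test statistic. A mean of 4 genotypes has a somewhat smaller SE than single genotypes, as for Tgfb1 (1.06 against 1.26 to 1.33). For Il12a the gap was far wider (0.63 against 1.64 to 2.03), so its SE is not a reliable measure of precision. Taken genotype by genotype, with the same 5 effector samples in each comparison, the 7 genes were called in 4 of 4, or 28 of 40 tests. Over all genes tested 5.71% were called in WT, 5.16% in N, 4.5% in HetNrp1def and 4.72% in HetWT.

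Lymph node Tregs against tumour effector T cells differ in both tissue and cell type, which cannot be told apart, and they share the effector samples with the comparison above. The same 7 genes were higher in lymph node Tregs, where 3.11% of all genes tested were called and 2.19% were higher. Lrrc32 was 6.07 ± 0.67 (adjusted p = 3.3e-09), Ebi3 5.36 ± 0.84 (adjusted p = 1.6e-05), Entpd1 4.07 ± 0.82 (adjusted p = 0.00111) and Nt5e 3.58 ± 0.53 (adjusted p = 6.5e-06). For Lrrc32 and Nt5e all 18 lymph node samples lay above all 5 effector samples. For Il10 it was 11 of 18, and for Areg and for Fgl2 12 of 18. Here too the share of all genes with such a separation was not counted.

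Areg was 6.08 ± 1.49 (adjusted p = 0.0101), and its call was lost with the newer quasi-likelihood method (6.14, adjusted p = 0.0745), in the authors' log2 values (0.69, adjusted p = 0.812) and in the double-sorted samples alone (2.80, adjusted p = 1). Il10 and Fgl2 were close to the threshold. Il10 was 3.97 ± 1.16 (adjusted p = 0.0482) and lost its call in 15 of the 23 fits that left out 1 sample: without HetWT lymph node 2, ds2 or 4, HetNrp1def 2 or ds2, N 3, ds1 or 4, WT 2, 3 or 4, or effector 2, 3, ds1 or 4 (adjusted p from 0.0274 to 0.144 over the 23). Il10 also lost it with no filter on low counts (4.22, adjusted p = 0.0799), in the authors' log2 values (0.36, adjusted p = 0.915) and in the double-sorted samples alone (1.06, adjusted p = 1). Fgl2 was 2.97 ± 0.86 (adjusted p = 0.0497) and lost its call in 19 of 23. The exceptions were the fits without the ds1 sample of HetNrp1def, N or WT lymph node Tregs and the fit without effector replicate 4, in which it was 5.53 (adjusted p = 1.1e-04). Fgl2 also lost it with no filter (2.95, adjusted p = 0.0932), in the single-sorted samples alone (2.65, adjusted p = 0.122) and without the ds2 samples (2.71, adjusted p = 0.303).

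**Figure D5:**
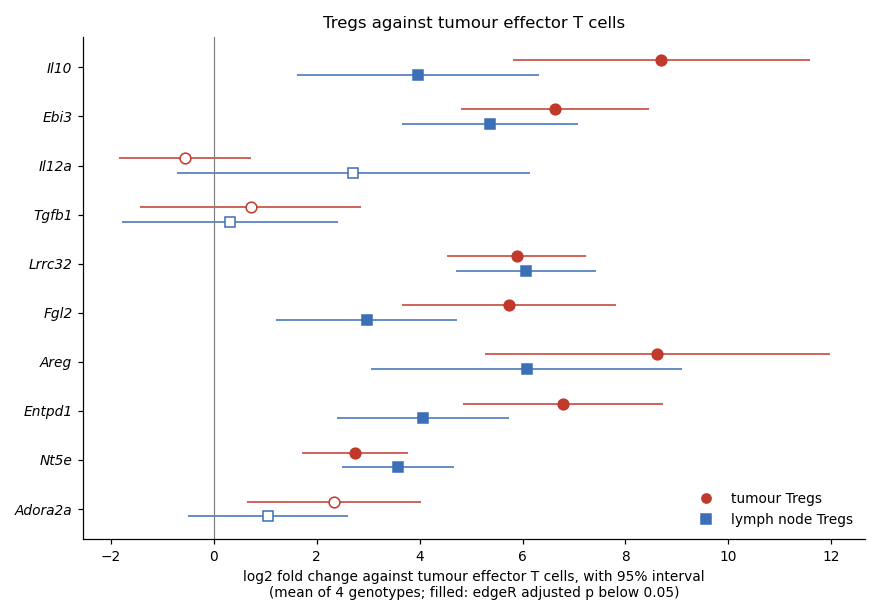
Log2 fold change with 95% interval of tumour Tregs (red circles) and lymph node Tregs (blue squares), each the mean of 4 genotypes, against the same 5 tumour effector samples. Filled symbols passed an adjusted p of 0.05. Both symbols are filled for 7 genes, and both are open for Il12a, Tgfb1 and Adora2a.

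No gene of the 10 was called between genotypes. The contrasts N minus WT, HetNrp1def minus HetWT, HetNrp1def minus WT and HetWT minus WT gave 0 of 40 calls in tumour Tregs (2 at an unadjusted p under 0.05) and 0 of 40 in lymph node Tregs (3 at an unadjusted p under 0.05). The 2 interactions of tissue and genotype gave 0 of 20 (2 at an unadjusted p under 0.05). Over all genes tested the share called was 0% in each of these contrasts by edgeR, with 291 to 952 genes at an unadjusted p under 0.05, while DESeq2 called 4 to 254 genes a contrast, none of them among the 10. The intervals were wide. For Il10 in tumour Tregs, N minus WT was 0.25 ± 1.01 (95% interval -1.80 to 2.29) and HetNrp1def minus HetWT was 0.08 ± 1.12 (-2.21 to 2.37). For Entpd1 the same contrasts were 0.15 (-1.40 to 1.71) and -0.25 (-1.99 to 1.48), and for Lrrc32 0.56 (-0.57 to 1.69) and -0.21 (-1.47 to 1.05).

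Single samples set the contrasts with unadjusted p under 0.05 in the lymph node. Areg was 3.72 ± 1.32 for HetWT minus WT and -3.13 ± 1.41 for HetNrp1def minus HetWT, and without HetWT replicate ds1 these were 0.06 and 0.50. Nt5e was 1.46 ± 0.55 for HetNrp1def minus WT and 0.22 without HetNrp1def replicate ds1. The Areg interaction of 3.89 ± 1.90 was 0.25 without HetWT lymph node ds1. The contrasts in the tumour were both of Il12a in HetNrp1def, the group with no count.

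Other genes of the same pathways were taken from a list of 52, of which 51 were in the count table and 45 were tested. Between tumour and lymph node Tregs 12 were higher and 3 lower, with a median log2 fold change of 0.43. Over all 14668 genes tested, 5.84% were higher and 5.37% lower. Of 8 genes of the interleukin-10 receptor and its regulators, 5 rose. Prdm1, which encodes the transcription factor Blimp-1, was at 143 ± 48.8 CPM in tumour and 17.6 ± 16.4 in lymph node Tregs (3.17 ± 0.42, adjusted p = 1.9e-07). Nfil3, a transcription factor, was at 95.8 ± 51.6 and 14.1 ± 13.4 CPM (2.99 ± 0.49, adjusted p = 1.2e-05). Maf, also a transcription factor, was at 886 ± 507 and 313 ± 293 CPM (1.56 ± 0.33, adjusted p = 0.00125). All of these are known regulators of Il10 in T cells.

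Of 4 tested genes of the interleukin-12 family and its receptors, 2 rose and 1 fell. The receptor chains Il12rb2 (5.02 ± 0.87, adjusted p = 3.1e-05) and Il12rb1 (2.04 ± 0.37, adjusted p = 6.2e-05) rose, and Il6st, the receptor chain gp130, fell (-1.50 ± 0.31, adjusted p = 4.2e-04). Il6st was at 44.2 ± 20.1 CPM in the tumour and 128 ± 47.2 in the lymph node. Among 11 tested genes of TGF-beta storage, activation and reception 2 rose and 2 fell. The ones that fell encode the receptor chains, Tgfbr1 (-1.24 ± 0.29, adjusted p = 0.00217) and Tgfbr2 (-0.72 ± 0.20, adjusted p = 0.0127). Ltbp3, a latent TGF-beta binding protein, rose (2.83 ± 0.93, adjusted p = 0.0384) at a low level, 2.17 ± 3.35 against 0.322 ± 0.445 CPM. The integrin chain Itgav also rose (1.27 ± 0.29, adjusted p = 0.0015). Il6st, Tgfbr1, Tgfbr2 and Itgav were named after their values were seen.

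Of the 2 Fgl2 receptors tested, Fcgr3 was called (3.94 ± 1.04, adjusted p = 0.00719) at 4.67 ± 5.55 CPM in the tumour and 0.722 ± 1.98 in the lymph node. Among 8 tested relatives and inducers of amphiregulin 2 rose, of which Hbegf, another ligand of the same receptor family, was 2.46 ± 0.81 (adjusted p = 0.039). None of 12 tested genes of adenosine handling was called between the tissues by edgeR (2 at an unadjusted p under 0.05).

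Against effector T cells, 13 of the 45 were higher and 3 lower in tumour Tregs, with a median log2 fold change of 1.10. Over all 14668 genes tested, 796 were higher and 850 lower. Nfil3 (8.45 ± 1.18, adjusted p = 4.0e-07), Maf (5.35 ± 0.71, adjusted p = 6.3e-07), the interleukin-33 receptor gene Il1rl1 (5.28 ± 0.93, adjusted p = 3.9e-05) and Il10ra (4.61 ± 0.64, adjusted p = 3.1e-07) were higher, as were Hbegf (4.77) and Il12rb1 (4.36). Btc (-5.26) and the nucleoside transporter Slc29a2 (-3.95) were lower. The Btc level in effector T cells had a mean of 12.9 CPM and a median of 0.247, since 1 sample held 58.5 CPM. In lymph node Tregs 8 of the 45 were higher and 3 lower than in the same effector samples. Of all 14668 genes tested, 321 were higher and 135 lower there. Among the pathway genes Nfil3 was at 5.46, Il1rl1 at 4.68, Cd38 at 3.84, Maf at 3.79, Il10ra at 3.52 and Irf4 at 2.57. Btc was at -5.21 and Il12rb2 at -3.72.

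Markers of other cells also differed between the tissues. Melanoma genes were higher in tumour Tregs in 7 of 7 (summed CPM 4.61 to 3531 against 0.634 to 72.2 in the lymph node). Of 9 macrophage and monocyte genes measured, 3 were higher (Cd14, C1qc and Fcgr1), with sums of 1.48 to 287 against 0.18 to 122 CPM. Of 6 dendritic cell genes 2 were higher (Zbtb46 and Xcr1), with sums of 16.2 to 421 against 0 to 153 CPM. Siglech made up most of the highest sums, at up to 389.9 CPM in tumour and 149 in lymph node Tregs. The medians of Siglech (2.13 against 4.72 CPM) and Flt3 (1.1 against 2.46) were lower in the tumour. Cd14 was at 0 in 10 of 18 tumour samples. In WT tumour replicate ds2 the macrophage genes summed to 1.48 CPM, the melanoma genes to 6.57 and the dendritic cell genes to 30.5, the last above the lymph node median of 14.5. That sample held 33.9 CPM of Il10, the lowest of the 18 tumour samples, 322 of Fgl2, 135 of Entpd1 and 12.5 of Areg. The part of these cells in the rises of Il10, Fgl2, Areg and Entpd1 was not tested.

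Levels are compared between genes per kilobase of exon, as medians. In tumour Tregs the order was Il10 (99.8 CPM per kilobase), Fgl2 (89.4), Ebi3 (48.3), Entpd1 (28.7), Lrrc32 (22.8), Areg (21.8), Nt5e (11.8), Adora2a (5.69), Tgfb1 (1.78) and Il12a (0.0121). In lymph node Tregs Lrrc32 came first (26.6), followed by Ebi3 (21.2), Nt5e (20.5) and Fgl2 (12.3), and Il10 was at 3.9. In effector T cells Nt5e (2.3), Adora2a (1.68) and Tgfb1 (1.01) were the only ones above 1. Given the spread over samples, neighbours in these orders such as Il10 and Fgl2, or Lrrc32 and Areg, were not set apart.

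Across the 41 samples some of the genes varied together, as a description of samples that share tissue and library labels. Fgl2 and Entpd1 had r = 0.92, and each was among the 3 genes most like the other of 8492 compared. Within the 18 tumour Treg samples the r of that pair was 0.03. Likewise Ebi3 and Entpd1 had 0.86 over all samples and 0.03 within tumour Tregs. Il10 and Ebi3 had 0.67 over all samples but -0.58 within tumour Tregs, where Il10 and Nt5e had -0.62. Tgfb1 and Adora2a had 0.21 over all samples and 0.70 within tumour Tregs.

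The genes most like each called mediator over the 41 samples were as follows. For Il10 they were Mt1 (r = 0.91), Nkg7 (0.88) and Lamc1 (0.87). For Ebi3 they were Ccnb2 (0.89), Klrg1 (0.87) and Mdfic (0.87). Lrrc32 was closest to Coro2a (0.94), the interleukin-2 receptor chain Il2ra (0.93) and Ube2c (0.92). Fgl2 was closest to Acot7 (0.95), Entpd1 (0.92) and Crem (0.88), and Entpd1 to Fgl2 (0.92), Rgs16 (0.89) and Stx11 (0.89). Areg was closest to Nkg7 (0.84), Arl5a (0.83) and Hif1a (0.82). Nt5e was closest to Nrp1 (0.81), Slc14a1 (0.79) and Apobec3 (0.78).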

How the data were processed

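The authors deposited read counts per gene for 45 libraries and, per the labels, log2 values for 10832 genes. The submitters' processing notes name STAR, featureCounts, limma and mm10. Versions, annotation, strand setting and treatment of shared reads are not stated there. In the log2 table each gene has an equal mean in every replicate number (within 3.8e-13), and its log2 values were used only as an alternative. Positions come from GENCODE for mm10.

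Libraries of a group with chi-square per degree of freedom under 5 were summed (4 pairs at 2.04 to 2.42, the other 86 at 51.1 or above), which left 41 samples. The joined tumour pairs each hold a ds1 library and count as single-sorted. The fit of the double-sorted samples alone therefore held 7 ds1 and 9 ds2 samples, with only ds2 in each heterozygous tumour group. A call lost in that fit may reflect its few samples. Counts were fitted with edgeR 4.0.16 in R 4.3.3 (limma 3.58.1, DESeq2 1.42.0): TMM, filterByExpr by group, robust quasi-likelihood fits of all 9 groups with 32 residual degrees of freedom, and Benjamini-Hochberg adjustment over 14668 genes within each of 21 contrasts, called below 0.05. CPM is counts over library size times TMM factor. Each SE of the edgeR fits is the absolute log2 fold change over the square root of the F statistic. The 95% intervals of fold changes use that SE with 32 degrees of freedom. Both are approximate, and an interval can differ from its p-value near the threshold. The script was tested on simulated counts. Likeness is Pearson's r of log2 CPM (prior count 2) among genes with a mean of 10 CPM or more, and the 3 highest were named. Pathway genes named are those called, at most 8 a contrast by size, with exceptions. Il6st, Tgfbr1, Tgfbr2 and Itgav were called between the tissues but lay beyond that limit. Il27 and Il12b were named for their levels and were not called.

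Replicate numbers were taken to pair samples where every same-numbered pair correlated above 0.1 in deviations from group means. This held in 3 of 16 group pairs, all between lymph node genotypes (HetNrp1def with HetWT, HetNrp1def with WT and HetWT with WT), from the values and not the labels. It held in 0 of the 4 comparisons of tissue. The limit is arbitrary and does not show that other samples are unpaired. N tumour samples correlated best with the N lymph node sample of their own number in 5 of 5, with a lowest r of 0.100. For HetNrp1def with HetWT tumour samples this was 4 of 4, with a lowest r of 0.081. The main fit used no pairing, so all its intervals are those of unpaired samples. The replicate block was run as an alternative. The genes and lists were chosen with earlier results of these data known, and the samples without ds1, without ds2 and a newer quasi-likelihood method were alternatives added after seeing the data. A gene of the planned marker lists is not reported here.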

Additional observations from a re-analysis of the deposited data

Results flagged for a closer look

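In each group of 4 or 5 samples the highest and lowest values were tested for a gap to the rest by Dixon's critical value, on log2 CPM with a prior count of 2. Of 89 combinations of gene and group 9 stood out, where chance alone gives about 1 in 20. In HetNrp1def lymph node Tregs, replicate ds1 was the lowest of 4 for Ebi3 (1.13 CPM) and for Fgl2 (0.225 CPM). In N tumour Tregs, ds1 was the highest of 5 for Il12a (0.635 CPM, from 4 counts) and the lowest for Entpd1 (85.1 CPM). For Nt5e, WT tumour ds2 was the highest (356 CPM), and WT lymph node ds1 (35.3 CPM) and effector ds1 (2.48 CPM) were the lowest of their groups. For Adora2a, N lymph node replicate 2 (4.27 CPM) and effector ds2 (0 CPM) were the lowest. The lymph node samples at 180.1 CPM of Areg and 1059 CPM of Nt5e did not pass on this log scale. Of the 9 values, 8 came from double-sorted samples, and the part of sorting was not tested.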

How the results depend on the processing

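Between tumour and lymph node, the 7 called genes became 4 in the authors' log2 values and 2 in the double-sorted samples alone (5 to 7 with 1 sample left out). The 2 calls within single genotypes became 0 without a filter, in the authors' log2 values, in the single-sorted or the double-sorted samples alone and without ds2, 4 without ds1, 6 with 45 libraries, 7 with the replicate block, 13 with DESeq2 and 14 with the newer method (1 to 5 with 1 sample left out, 5 without effector replicate 4). Against effector T cells, the 7 of tumour and the 7 of lymph node Tregs each became 2 and the 28 became 8 in the double-sorted samples alone. The 15 pathway genes called between tissues became 8 in the authors' log2 values and 0 in the double-sorted samples alone (12 to 17 with 1 left out), and the 16 against effector T cells became 9 and 1 (13 to 17). No genotype or interaction call was gained in any alternative run. Values within 1.5 times are not listed. Directions turned for genes that were near 0 or rare. Il12a was 0.04 (tumour minus lymph node) and -0.21 (lymph node minus effector) in the double-sorted samples alone, and ran from -1.11 to 0.39 (tumour minus effector) with 1 sample left out, above 0 without effector ds1. Tgfb1, tumour minus lymph node, was -0.04 with the replicate block, -0.28 in the authors' log2 values and -0.06 to 0.75 with 1 sample left out, below 0 without WT tumour ds2. Against effector T cells it was -0.16 in the authors' log2 values (tumour), and in the lymph node -0.02 without HetNrp1def ds2 and -0.04 without effector 4 or WT ds2, in a range up to 1.20. The cause was not tested. The replicate block changed no call of the 10 genes in the tissue mean or for tumour Tregs against effector T cells, and for lymph node Tregs against effector T cells it changed that of Il10 (3.48, adjusted p = 0.0803). Over all genes, calls between tissues went from 1644 to 1023 in the authors' log2 values and 78 in the double-sorted samples alone, tumour against effector from 1646 to 454 (78.9% higher, against 48.4%) and 82, with 2788 by the newer method and 1087 without ds2, and lymph node against effector from 456 to 50, 291 without ds2, 919 with DESeq2 and 921 with the newer method. DESeq2 moved the median of all genes, tumour minus effector, from -0.134 to -0.354. Genes with under 10 CPM, Il12a above all, rest on few counts.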
